A study of Rattus norvegicus with 6 samples.

Results

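The extracellular matrix and TGF-beta genes of the rat retina are described here as a set of 34 genes chosen by name: fibrillar collagens, basement membrane collagens and laminins, glycoproteins, small leucine-rich proteoglycans, matricellular proteins, matrix proteases with their inhibitors, and the ligands, receptors and classical targets of TGF-beta. Of these names, 33 matched 1 of the 28358 genes in the deposited tables and 1 name was not analysed here. The RNA came from the neuroretina, the neural layers of the eye without the pigment epithelium, of male Goto-Kakizaki (GK) rats aged 14 months, an inbred line that develops type 2 diabetes without becoming obese. Every animal had been injected once into the vitreous with 5 µL of PLGA microspheres (PLGA is a polymer that breaks down in the eye), and retinas were collected 2 months later. The spheres held 6.2 µg of spironolactone, a steroid that blocks mineralocorticoid receptors, in 3 samples (the spironolactone group) and no drug in the other 3 (the non-loaded group). All 6 samples are therefore diabetic, injected and male, and no uninjected or non-diabetic retina is compared here. Whether the 3 samples of a group are 3 animals is not stated in the labels, so the tests speak only of the spread among these libraries, which may be technical.

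TGF-beta ligands are secreted in a latent form, are released in the matrix, and signal through a receptor pair of type I and type II kinases to SMAD transcription factors. In many tissues this pathway raises collagen, fibronectin and connective tissue growth factor, and mineralocorticoid receptor activity is linked to fibrosis in heart and kidney. In the retina the matrix is sparse: basement membranes line the vessels and the inner surface, and Müller glia and astrocytes supply much of the rest. Fibrillar collagen of types I and III belongs mostly to large vessels and to the tissues around the neuroretina.

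Depth was 9996198 to 12589466 expected counts per library. Pearson correlations of log2(CPM + 1) across genes lay between 0.988 and 0.993 for the 15 pairs of libraries. The labelled tissue was matched by its markers: rod genes summed to 43442 to 54716 CPM (counts scaled to library size) in non-loaded and 35842 to 40227 CPM in spironolactone samples, and Müller glia genes to 9172 to 9474 and 9009 to 9375 CPM. Of the 9 tested rod markers 4 were called lower and 0 higher with spironolactone at an adjusted p of 0.05 (edgeR test). Of all tested genes, 0.763% were called lower and 1.87% higher. By direction alone, 8 of the 9 rod markers had a log2 fold change below 0 and 1 above 0. Replicate numbers here give the order of the libraries within each group and are not the numbers in the sample titles. They pair no library with one of the other group, and libraries numbered 3 means replicate 3 of each group. Some libraries stood apart, as shown by genes named here after their values were seen. The corneal keratin gene Krt12 measured 25.1 CPM in spironolactone replicate 1 and 0.202 to 1.89 CPM in the other 5, and Krt5 measured 11.6 CPM there and at most 0.0872 CPM elsewhere. The corneal stroma gene Kera had 4 counts in spironolactone replicate 3 and 0 elsewhere. Replicate 3 of both groups stood apart in matrix genes outside the set: Fbln1 measured 25.4 CPM in the non-loaded and 37.4 CPM in the spironolactone one and 2.71 to 8.09 CPM in the other 4 libraries. Likewise Optc measured 13.1 and 12.55 CPM against 1.96 to 4.31 CPM, and Ltbp2 23.7 and 29.6 CPM against 4.45 to 10.5 CPM. Several results that could rest on these libraries are given with and without them. Without replicate 3 of both groups, still 0 of the 31 tested members were called. The lens genes Mip and Lim2 were at 0 counts in all 6.

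Promoter sequences from RefSeq (GRCr8, while the deposited counts were made on rn6) were matched for 23 of the 33 genes. The shared start region of a collagen pair and the promoter of a TGF-beta target are shown. Col4a1 and Col4a2, whose chains join in the same type IV collagen molecule, are transcribed in opposite directions from start sites with 76 bases between them (chr16:84885521-84885596). The whole stretch between the starts is printed on each gene's own strand, with the GC box GGGCGG or its reverse complement CCGCCC in capitals.
Col4a1: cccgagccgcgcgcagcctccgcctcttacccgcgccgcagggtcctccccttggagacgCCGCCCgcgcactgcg
Col4a2: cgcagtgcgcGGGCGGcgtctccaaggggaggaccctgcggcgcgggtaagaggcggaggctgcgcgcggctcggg
Ctgf, now named Ccn2, encodes connective tissue growth factor and is a standard readout of TGF-beta signalling. The 250 bases before its start (chr1:22624615-22624864, minus strand) are printed with the TATA box TATAAA and the SMAD-type motif CAGAC in capitals.
Ctgf: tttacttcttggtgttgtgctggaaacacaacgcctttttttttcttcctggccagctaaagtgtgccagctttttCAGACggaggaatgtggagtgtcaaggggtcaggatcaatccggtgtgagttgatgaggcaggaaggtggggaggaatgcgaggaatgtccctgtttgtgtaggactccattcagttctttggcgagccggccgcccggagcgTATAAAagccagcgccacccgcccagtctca
The TATA motif begins 31 and the CAGAC motif 174 bases before the start. On either strand of the 250-base windows, TATAAA occurred in 4 of the 23 members and in 12.9% of all 33469 promoters, CAGAC in 7 members and in 42.9% of all, and GGGCGG in 15 members and in 30.5% of all. The Col4a1 and Col4a2 windows overlap and share bases, so they are not independent in these counts. The median GC of the windows was 60.4% for the 23 members and 51.2% for all promoters. Its part in the GGGCGG share was not tested. These matches describe letters in the windows and not binding.

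None of the tested members passed the comparison of spironolactone with non-loaded spheres. Of the 33 genes, 31 passed the filter on low counts, and 0 rose and 0 fell at an adjusted p of 0.05 (edgeR quasi-likelihood test, Benjamini-Hochberg over all 13242 tested genes), where 2.63% of all tested genes did. An unadjusted p below 0.05 was reached by 3 of the 31 (Col1a1, Col3a1 and Mmp14), while 15.8% of all tested genes reached it. The groups did not overlap in CPM for 4 of the 31, against 20.9% of all tested genes. Col1a1 and Col3a1 were higher, as were 11.4% of all tested genes, and Tgfbr1 and Tgfbr2 lower, as were 9.48%. The median log2 fold change of the tested members was -0.01, and that of all tested genes was 0.00. Both limma-voom and limma on log2(TPM + 1) also called 0 of the tested members. DESeq2 called 0 of those to which it gave an adjusted p. It gave none to several members of lower count, Col1a1 and Col3a1 among them, so it could not call these. In bulk retina, fewer cells of a type and less RNA per cell cannot be told apart, so equal levels do not speak of any single cell type.

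**Figure D1:**
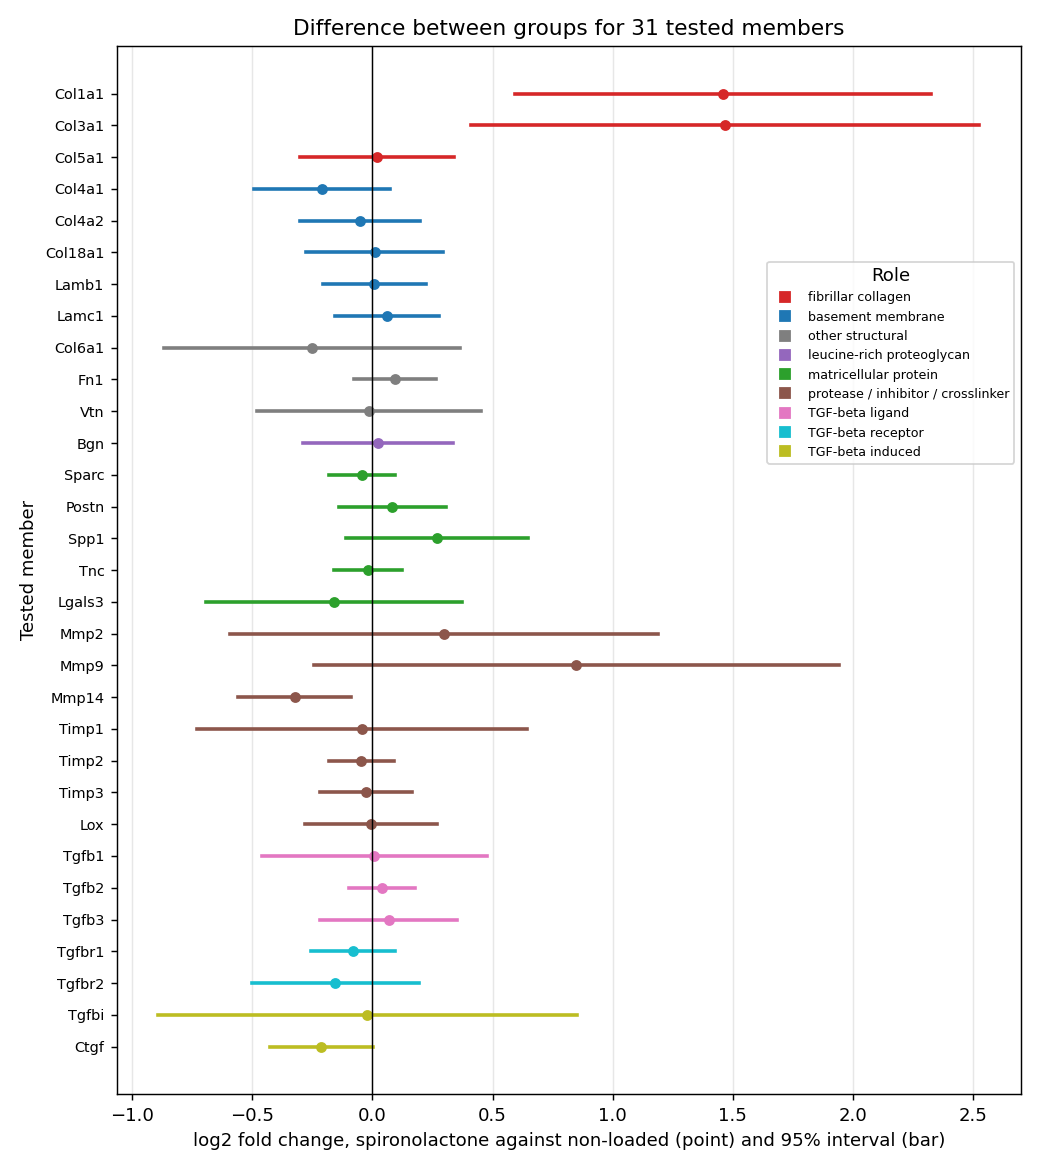
Log2 fold change (spironolactone against non-loaded, x axis) of the 31 tested members with the 95% interval of the edgeR fit, coloured by role. Most points sit near 0, Col1a1 and Col3a1 lie at 1.46 and 1.47 with wide intervals, and Mmp14 lies at -0.32.

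How far a difference could be seen depended on level. Of the 20 members with a mean log2 CPM above 3, 19 had a 95% interval that stayed within 1.5-fold either way, the exception being Spp1 with an upper bound of 1.57-fold. Of the 11 members at or below that level, 3 had such an interval, and the bounds of these 11 ran from 0.539-fold to 5.76-fold. Over all tested genes, 77% had an interval within 1.5-fold. An interval within 2-fold held for 27 of the 31, the exceptions being Col1a1, Col3a1, Mmp2 and Mmp9. A 2-fold difference was therefore outside the intervals of the abundant members, and for these 4 scarce genes it could not be measured closely at this depth.

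Levels are compared between genes in TPM, which divides by transcript length. The set spanned 3 orders of magnitude and was led by glycoproteins and inhibitors rather than by collagens. Sparc, a collagen-binding matricellular protein, was highest at 268 to 338 TPM across the 6 libraries and made up 32.5% to 35.9% of the members' summed TPM. Tgfb2 (111 to 135 TPM) and Timp2 (112 to 133 TPM) followed, with ranges that overlap, and then Timp3 (48.2 to 64.5 TPM). Ctgf (30.1 to 46.1 TPM), Spp1 (21.5 to 41.1 TPM), Tnc (25.6 to 30.2 TPM), Postn (21.1 to 29.3 TPM) and Mmp14 (18.6 to 29.0 TPM) formed the next tier, also with overlapping ranges. At the bottom were Lum, Col3a1, Col1a1 and Dcn, which had means of 0.198, 0.402, 0.452 and 0.673 TPM over 6 libraries.

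**Figure D2:**
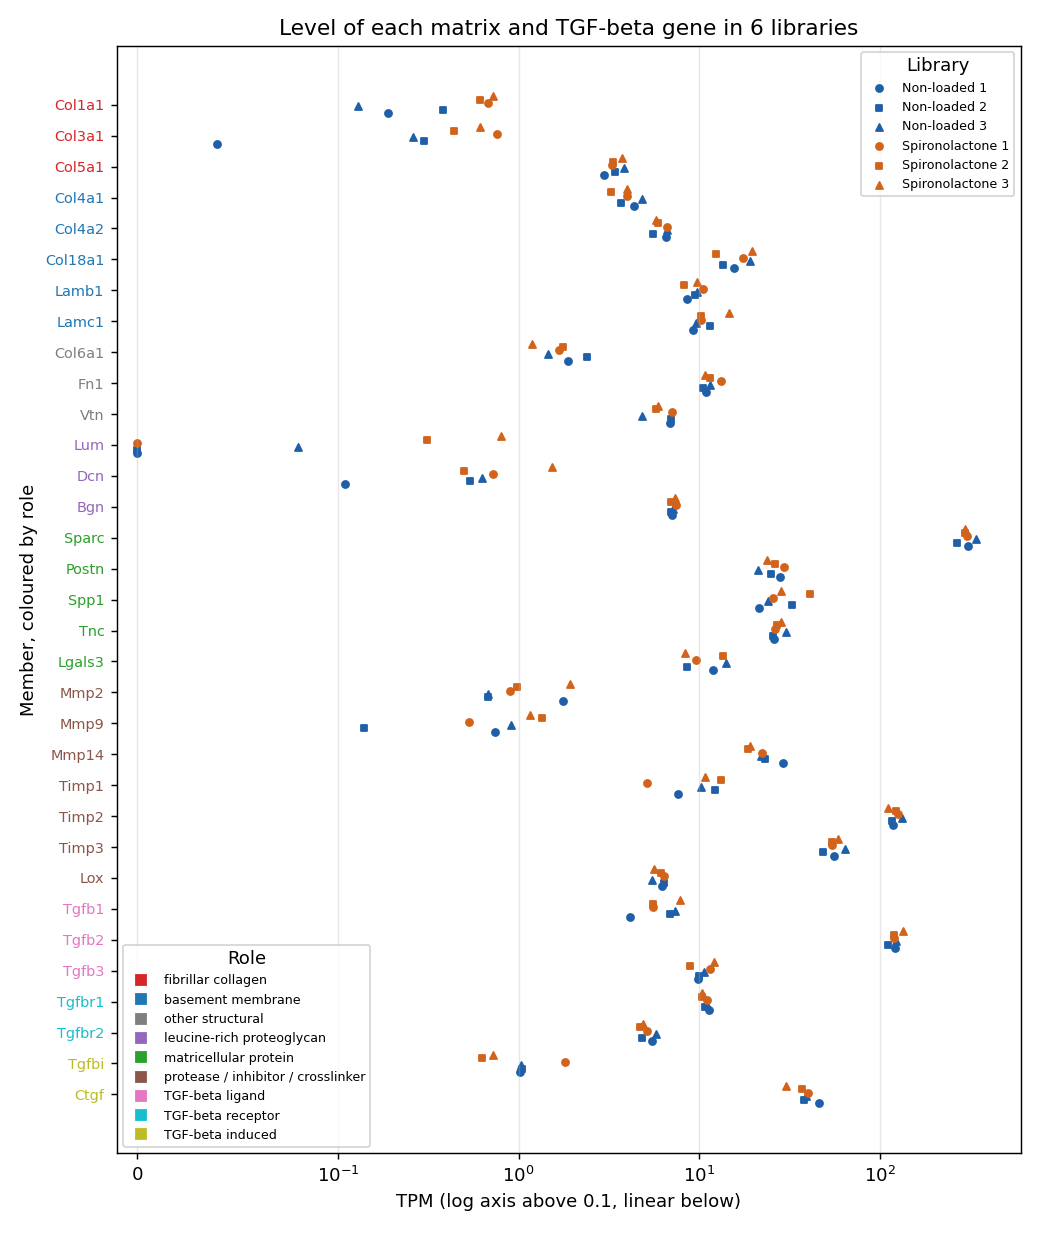
TPM of each of the 33 members (rows, grouped by role) in 3 non-loaded and 3 spironolactone libraries. Sparc, Tgfb2 and Timp2 lie above 100 TPM in every library, and Col1a1, Col3a1 and Lum lie below 1 TPM in every library.

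Fibrillar collagens form the tensile fibres of connective tissue, and the members Col1a1 and Col3a1 were scarce. This does not hold for the whole class. Col5a3, a fibrillar collagen gene outside the set named after its values were seen, measured 142 to 179 TPM across the 6 libraries. Col1a1, the main chain of type I collagen, measured 0.607, 1.22 and 0.411 CPM in the non-loaded samples and 2.05, 1.92 and 2.26 CPM in the spironolactone samples. All 3 spironolactone samples were above all 3 non-loaded samples. These CPM come from 5 to 14 counts per non-loaded and 22 to 25 counts per spironolactone library. The log2 fold change was 1.46 ± 0.41 (SE; adjusted p = 0.0723), with a 95% interval of 1.51 to 5.01 in folds, and without spironolactone replicate 1 it was 1.47 (adjusted p = 0.0937). With no filter on low counts the adjusted p of Col1a1 was 0.05003, just short of the threshold. Without both libraries numbered 3 its log2 fold change was 1.08 (adjusted p = 0.373). Leaving out each library in turn gave an adjusted p of 0.0559 to 0.265 and a log2 fold change of 1.14 to 2.02. Col3a1, the type III chain found with type I in vessel walls, measured 0.101, 0.785 and 0.658 CPM and then 1.87, 1.12 and 1.54 CPM. Its groups did not overlap either, at 1 to 9 against 14 to 20 counts, and its log2 fold change was 1.47 ± 0.50 (adjusted p = 0.146), or 1.29 without spironolactone replicate 1 (adjusted p = 0.254) and 1.64 without both libraries numbered 3 (adjusted p = 0.316). Col5a1, which helps to nucleate fibrils, was more abundant at 8.90, 10.6 and 11.3 CPM against 9.61, 10.1 and 11.7 CPM. For Col5a1 the groups overlapped (log2 fold change 0.02 ± 0.15, adjusted p = 0.974, interval 0.811-fold to 1.26-fold). Col1a1 and Col3a1 together made up 0.728%, 2.33% and 1.07% of the summed TPM of the 7 collagen members in non-loaded samples and 4.18%, 3.80% and 3.73% in spironolactone samples.

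Most markers of fibroblasts and meninges also had a higher mean in the spironolactone samples, but only Col1a1, Col3a1 and Mgp were higher in all 3. That list holds 10 names, of which Col1a1, Col3a1, Lum and Dcn are members and Pdgfra is also an astrocyte marker. Its summed level was 42.4 to 44.2 CPM in non-loaded and 42.9 to 49.5 CPM in spironolactone samples, but Pdgfra alone made up 27.6 to 34.5 CPM of it. Without Pdgfra the other 9 names summed to 8.60, 11.16 and 9.62 CPM against 14.8, 18.3 and 17.5 CPM, and 8 of the 9 had a higher mean with spironolactone, Foxc2 being the exception. The 5 of these that are not members summed to 7.79, 8.64 and 7.89 CPM against 10.3, 14.4 and 11.5 CPM. Most of that sum was Mgp, so its lack of overlap describes Mgp and not the list. Of the list's 4 tested genes 0 were called. All 4 had an unadjusted p below 0.05 in the edgeR fit, as had 15.8% of all tested genes. None of the 4 had overlapping groups in CPM, as was so for 20.9% of all tested genes. Of these 4, 3 were higher (11.4% of all tested genes) and 1 was lower (9.48%). The higher ones include the members Col1a1 and Col3a1, so this count is not separate from theirs. Mgp, a matrix protein of vessels and cartilage, measured 7.08, 7.94 and 6.58 CPM and then 9.42, 13.2 and 9.66 CPM (higher in all 3, log2 fold change 0.58 ± 0.17, adjusted p = 0.0911). Pdgfra, a receptor of fibroblasts that retinal astrocytes also carry, measured 34.2, 31.23 and 34.5 CPM and then 28.1, 31.20 and 27.6 CPM (log2 fold change -0.20 ± 0.09, adjusted p = 0.293). Its groups were barely apart. The other 4 names (Islr, Slc22a6, Ogn and Foxc2) stayed below 1 CPM in every library, and for each of them the groups overlapped. Of the pericyte and smooth muscle markers 0 of 11 tested were called, with sums of 113 to 132 CPM and 117 to 128 CPM. The part of these cell types in the Col1a1 and Col3a1 values was not tested.

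The small leucine-rich proteoglycans bind collagen fibrils and tune their spacing. Lum and Dcn, encoding lumican and decorin, did not pass the filter. Lum had 0, 0 and 1 counts in the non-loaded and 0, 4 and 9 counts in the spironolactone samples, and Dcn had 1, 6 and 7 counts and then 7, 6 and 16 counts. Spironolactone replicate 3, the library with Kera counts, held the highest count of both genes and the other libraries overlapped. Bgn, encoding biglycan, was the most even member, at 8.90, 8.98 and 8.72 CPM against 8.96, 8.86 and 9.21 CPM (log2 fold change 0.02 ± 0.15, adjusted p = 0.963).

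Basement membrane genes did not differ beyond their spread. Col4a1 measured 15.4, 13.4 and 16.7 CPM in non-loaded and 13.7, 11.6 and 14.1 CPM in spironolactone samples, and Col4a2 17.3, 15.1 and 17.2 CPM and then 16.98, 15.7 and 15.1 CPM. The groups overlapped for both, with log2 fold changes of -0.21 ± 0.13 (adjusted p = 0.489) and -0.05 ± 0.12 (adjusted p = 0.888). Although their start sites adjoin, as the printed sequence shows, Col4a2 stood above Col4a1 in TPM in every library, at 138% to 181% of its level. Col18a1, whose C-terminal fragment is endostatin, was the most abundant of the 5 per length (12.3 to 19.6 TPM) and varied more between libraries than between groups. It measured 41.9, 37.2 and 50.2 CPM and then 45.1, 33.3 and 52.4 CPM, a log2 fold change of 0.01 ± 0.14 (adjusted p = 0.985). Replicate 3 was the highest in each group, and without both libraries numbered 3 the value for Col18a1 was -0.02 (adjusted p = 0.973). The laminin chains Lamb1 and Lamc1, which assemble into the widespread vascular and inner-surface laminins, gave log2 fold changes of 0.01 ± 0.10 and 0.06 ± 0.10 (adjusted p = 0.983 and 0.84). All 5 intervals lay within 1.5-fold. The summed level of the 5 genes was 123 to 141 CPM and 117 to 143 CPM.

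Of the remaining structural genes, Fn1, encoding fibronectin, measured 48.1, 47.9 and 49.5 CPM in non-loaded and 56.7, 51.1 and 47.6 CPM in spironolactone samples. Spironolactone replicate 1, the library with corneal keratin, was the highest and the groups overlapped (log2 fold change 0.09 ± 0.08, adjusted p = 0.628). Without that library the value for Fn1 was 0.03 (adjusted p = 0.912). Col6a1, a chain of the microfibrillar type VI collagen, lay between 1.90 and 3.04 CPM in all 6 libraries (-0.25 ± 0.29, adjusted p = 0.739), and Vtn, encoding the adhesive glycoprotein vitronectin, between 3.78 and 5.84 CPM (-0.01 ± 0.22, adjusted p = 0.986).

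Matricellular proteins modulate how cells meet the matrix and include the most abundant members. Sparc measured 321, 291 and 348 CPM in non-loaded and 306, 313 and 312 CPM in spironolactone samples, all 3 of the latter inside the range of the former. Its log2 fold change of -0.04 ± 0.06 (adjusted p = 0.801) had an interval of 0.883-fold to 1.07-fold, and that of Tnc, encoding tenascin C, was -0.02 ± 0.07 (adjusted p = 0.933, 0.895-fold to 1.09-fold). Spp1, encoding osteopontin, a product of ganglion cells and activated microglia, was more variable: 15.5, 24.3 and 16.9 CPM against 17.8, 30.0 and 20.3 CPM. Replicate 2 was the highest in each group, and the groups overlapped (0.27 ± 0.18, adjusted p = 0.509). Postn, encoding periostin, gave 0.08 ± 0.11 (adjusted p = 0.766), and Lgals3, encoding the lectin galectin-3 of activated phagocytes, gave -0.16 ± 0.25 (adjusted p = 0.819).

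Among proteases, Mmp14, a membrane-bound enzyme that activates pro-MMP2, came nearest to the threshold on the lower side. It measured 36.5, 29.9 and 27.1 CPM in non-loaded and 27.1, 23.6 and 23.8 CPM in spironolactone samples. The highest spironolactone sample equalled the lowest non-loaded sample to within 0.1 CPM, so the groups just touched. The log2 fold change was -0.32 ± 0.11 (adjusted p = 0.152), and leaving out each library gave an adjusted p of 0.0761 (without non-loaded replicate 3) to 0.499 (without non-loaded replicate 1). Mmp14 supplied 86.1% to 96.6% of the summed TPM of the 3 protease members. The gelatinase genes Mmp2 (1.07 to 3.07 CPM) and Mmp9 (0.174 to 2.23 CPM) were near the filter, with log2 fold changes of 0.30 ± 0.42 and 0.85 ± 0.52 (adjusted p = 0.792 and 0.459). These 3 proteases summed to 17.3%, 13.5% and 11.4% of the summed Timp TPM in non-loaded and 12.8%, 10.98% and 12.2% in spironolactone samples, ranges that overlap.

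The 3 inhibitor members outweighed the 3 protease members at the RNA level, and proteases outside the set have no part in this comparison. Timp2 held 61.7% to 68.2% of the summed TPM of the 3 inhibitors and Timp3, which is bound to the matrix of Bruch's membrane, 27.2% to 32.4%. Timp2 measured 98.5, 99.96 and 108 CPM against 101, 103 and 92.1 CPM (log2 fold change -0.05 ± 0.06, adjusted p = 0.781). Timp3 gave -0.03 ± 0.09 (adjusted p = 0.932). Timp1, the inducible member, had 1.59 to 4.31 CPM and gave -0.04 ± 0.33 (adjusted p = 0.971). In the GRCr8 annotation Timp1 overlaps Syn1 on the opposite strand and Timp3 overlaps Syn3, and 8 of 23 members located there overlap another gene. Counting without strand could not tell the reads of such a pair apart, and the labels name a stranded library kit but not whether strand was used in counting. Lox, the lysyl oxidase that crosslinks collagen and elastin, measured 12.9 to 15.9 CPM in all 6 (-0.01 ± 0.13, adjusted p = 0.991).

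The TGF-beta ligands were dominated by Tgfb2, the isoform best known from neural and ocular tissue. It made up 87.9% ± 1.49 of ligand TPM in non-loaded and 88.0% ± 1.10 in spironolactone samples (SD, n = 3 per group), Tgfb3 7.51% ± 0.223 and 7.57% ± 0.903, and Tgfb1 4.56% ± 1.29 and 4.41% ± 0.538. Tgfb2 measured 181, 175 and 176 CPM against 166, 183 and 197 CPM. The spironolactone samples lay on both sides of the non-loaded ones, and the log2 fold change was 0.04 ± 0.06 (adjusted p = 0.832, interval 0.934-fold to 1.13-fold). Tgfb3 gave 0.07 ± 0.14 (adjusted p = 0.87). Tgfb1 measured 4.55, 7.76 and 7.89 CPM and then 5.88, 6.14 and 8.49 CPM (0.01 ± 0.22, adjusted p = 0.992).

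Both receptor genes were slightly lower in CPM in every spironolactone sample, without passing the test. Tgfbr1, the type I kinase, measured 34.6, 34.2 and 32.8 CPM against 32.6, 31.8 and 31.6 CPM, a log2 fold change of -0.08 ± 0.08 (adjusted p = 0.699). Tgfbr2, the ligand-binding type II kinase, measured 7.99, 7.24 and 8.22 CPM against 7.19, 6.86 and 7.04 CPM, a log2 fold change of -0.15 ± 0.16 (adjusted p = 0.712). For each gene the gap between the nearest samples was smaller than the range within the non-loaded group.

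Of the TGF-beta induced genes, Ctgf measured 55.4, 47.5 and 45.9 CPM in non-loaded and 46.8, 45.4 and 35.9 CPM in spironolactone samples. The groups overlapped, and non-loaded replicate 1 was the highest and spironolactone replicate 3 the lowest library. The log2 fold change was -0.21 ± 0.10 (adjusted p = 0.325), and it lay between -0.28 and -0.11 when each library was left out. Tgfbi, encoding a secreted adhesion protein named for its induction by TGF-beta, was scarce (0.878 to 2.43 CPM, -0.02 ± 0.41, adjusted p = 0.988). Its highest value was in spironolactone replicate 1, and without that library the log2 fold change was -0.61 (adjusted p = 0.521).

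**Figure D3:**
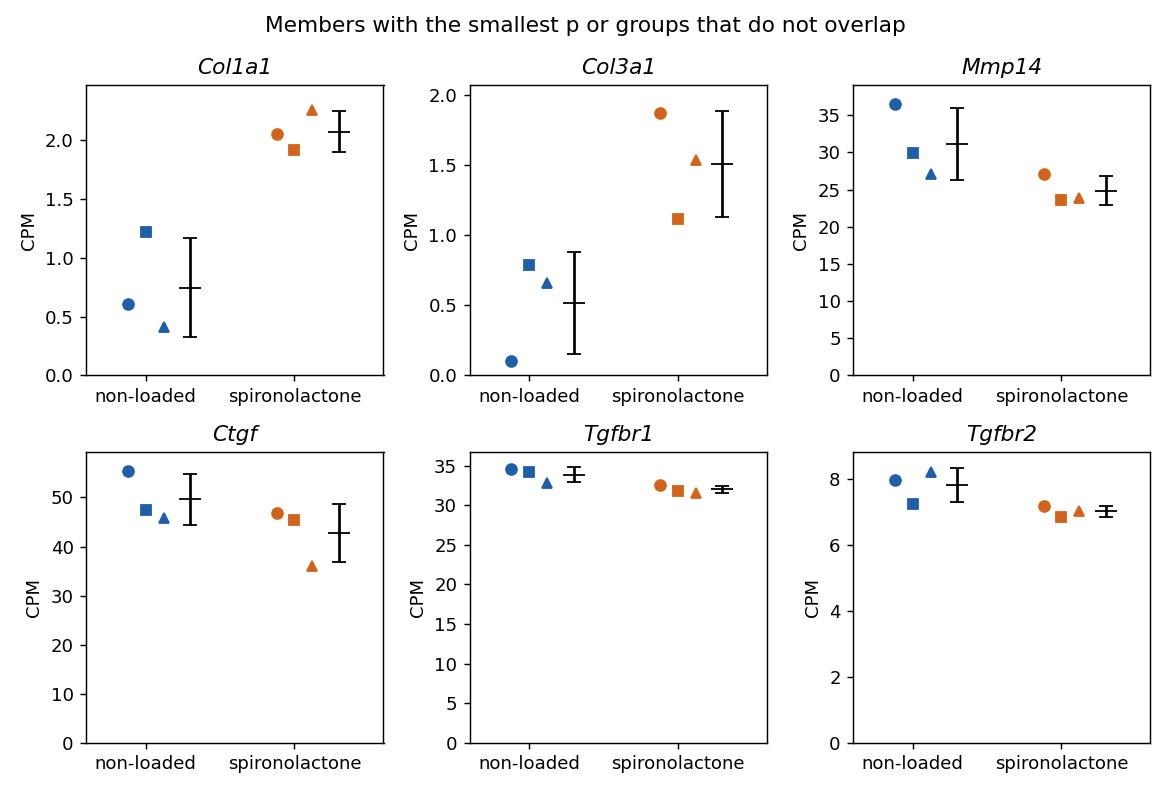
CPM (y axis, from 0) of 6 members in each library, with circles, squares and triangles for replicates 1, 2 and 3 and a bar for mean ± SD of 3. Col1a1 and Col3a1 are higher in all 3 spironolactone samples, Tgfbr1 and Tgfbr2 are lower by a small margin, and Mmp14 and Ctgf overlap or touch.

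Set side by side, the roles differed in how tightly they were measured and in direction, with no member called in any. Median log2 fold changes were 1.46 for 3 fibrillar collagens, 0.01 for 5 basement membrane genes, -0.02 for 5 matricellular genes, -0.03 for 7 protease, inhibitor and crosslinker genes and -0.02 for 7 ligand, receptor and induced genes. The fibrillar value rests on Col1a1 and Col3a1, which had at most 25 counts in a library. Summed per library, the 3 fibrillar collagen members stood at 9.61 to 12.56 CPM and 13.1 to 15.4 CPM, most of it Col5a1. The protease members with inhibitors and Lox stood at 195 to 209 CPM and 189 to 197 CPM. All 33 members summed to 1147 to 1234 CPM in non-loaded and 1161 to 1195 CPM in spironolactone samples.

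Around these members, 208 further matrix and TGF-beta pathway names were examined in 7 lists. Counting a gene in more than 1 list once, 178 were tested, 1 rose and 1 fell, against 1.87% of all tested genes that rose and 0.763% that fell. The gene that fell was Gpc3, a cell-surface glypican, from 2.93, 1.40 and 2.96 CPM to 0.933, 0.878 and 0.723 CPM (log2 fold change -1.51 ± 0.39, adjusted p = 0.0499). It passed only narrowly and near the filter. Leaving out each library gave an adjusted p of 0.0318 (without non-loaded replicate 2) to 0.228 (without non-loaded replicate 1), and it passed in 1 of these 6 fits. Without both libraries numbered 3 its adjusted p was 0.314.

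The signalling machinery itself showed no called gene. Of 41 tested genes for latency, activation, receptors and SMAD signalling of the TGF-beta and BMP branches, 0 rose and 0 fell, and 4 had an unadjusted p below 0.05. The smallest p belonged to Zfyve9, which presents SMADs to the receptor (127, 129 and 129 CPM against 144, 139 and 156 CPM, 0.19 ± 0.06, adjusted p = 0.114), and to Smurf2, a ubiquitin ligase that limits the pathway (0.16 ± 0.06, adjusted p = 0.163). For both, every spironolactone sample was above every non-loaded one. Of 16 tested response genes, 0 were called and 0 had an unadjusted p below 0.05. The smallest p belonged to Snai1, a transcription factor of mesenchymal conversion (0.67 ± 0.38, adjusted p = 0.417), and to Id1, a BMP target (0.34 ± 0.21, adjusted p = 0.455).

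Gpc3 was the single call among 38 tested glycoproteins and proteoglycans, and the lists of other collagens, other proteases and integrins gave none. Over the 18 alternatives, DESeq2 and both forms of limma included, the only call in any of the 7 lists beyond the 1 higher and 1 lower gene was Serping1, an inhibitor of complement and kallikrein proteases, which was called higher without spironolactone replicate 1 (log2 fold change 0.37, adjusted p = 0.0477). Among 21 other collagens the smallest p belonged to Col23a1 (17.3, 18.2 and 19.3 CPM against 15.4, 15.4 and 13.1 CPM, -0.32 ± 0.12, adjusted p = 0.18) and Col27a1 (0.18 ± 0.09, adjusted p = 0.326). Among 37 other proteases, inhibitors and crosslinkers they were Adam10, a sheddase (77.4, 68.8 and 69.1 CPM against 81.1, 82.3 and 84.4 CPM, 0.21 ± 0.07, adjusted p = 0.125), and the membrane-type protease gene Mmp24 (-0.23 ± 0.09, adjusted p = 0.21). Among 14 integrin subunits, the cell's matrix receptors, they were Itgb5 (-0.17 ± 0.07, adjusted p = 0.198) and Itga3 (-0.19 ± 0.08, adjusted p = 0.236). In these 3 lists, 1, 8 and 2 genes had an unadjusted p below 0.05 in the edgeR fit.

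Among markers of the cells that make matrix, 1 endothelial and 1 astrocyte gene were called, where 2.63% of all tested genes were. Of 10 tested endothelial markers 1 rose, Vwf, which encodes von Willebrand factor (30.7, 25.7 and 30.4 CPM against 53.2, 32.7 and 41.5 CPM, log2 fold change 0.55 ± 0.14, adjusted p = 0.0404). Vwf was highest in spironolactone replicate 1, the library with corneal keratin. When each library was left out it passed only without spironolactone replicate 2 (adjusted p = 0.0124), and without spironolactone replicate 1 its adjusted p was 0.0891. Of 5 tested astrocyte markers 1 fell, Gfap, the intermediate filament of astrocytes and reactive Müller glia (125, 124 and 121 CPM against 86.5, 106 and 87.2 CPM, log2 fold change -0.40 ± 0.07, adjusted p = 0.00655). Of 12 tested Müller glia markers and 13 tested microglia and macrophage markers 0 were called. Pigment epithelium and choroid markers summed to 148, 158 and 132 CPM in non-loaded and 144, 128 and 75.2 CPM in spironolactone samples, with 0 of 8 called. The lowest sum was that of spironolactone replicate 3, the library with Kera counts. The part of these cell types in the members' values was not tested.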

How the data were processed

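Gene-level tables were deposited by the authors, 1 per library. Per the file headers they are RSEM tables with expected counts (estimated counts per gene, not normalized), TPM (scaled to transcript length and library), FPKM (not used here) and gene lengths. STAR 2.5.3a, RSEM 1.2.28, Trimmomatic, FastQC and the build rn6 are named, per the submitters' processing notes. Not given in the sources used here are their roles, the annotation release and whether strand was used.

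Expected counts were rounded to whole numbers, filtered with edgeR's filterByExpr (13242 of 28358 genes kept, with 99.9% of counts in the lowest library), scaled by TMM and tested with the edgeR 4.0.16 quasi-likelihood test in R 4.3.3, 3 libraries against 3, adjusting p over every tested gene by Benjamini-Hochberg. CPM are counts scaled by TMM library size. Intervals are 95% intervals of the edgeR coefficient. Levels between genes were compared in TPM. The 18 alternatives used other scalings and filters, DESeq2 1.42.0, limma 3.58.1 (voom, and log2(TPM + 1) or log2(TPM + 0.1)), robust shrinkage, effective lengths, a covariate for the number that each title carries, each library left out in turn and, chosen after seeing the data, replicate 3 of both groups left out. The members and gene lists were chosen with earlier results of these data known. All members are named, and from each pathway list the called genes or, with none called, the 2 with the smallest p. The 1 higher call in the pathway lists is not reported here by gene. Markers are given as counts and summed levels. The test was checked on simulated counts with known changes before use.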

Additional observations from a re-analysis of the deposited data

How the results depend on the processing

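The number of tested members called stayed at 0 higher and 0 lower under all 18 alternatives, by the narrowest margin for Col1a1 with no filter on low counts (adjusted p = 0.05003 in edgeR). The filter of 1 CPM in every library removed Col1a1, Col3a1, Mmp9 and Tgfbi, so these have no value there. DESeq2 gave no adjusted p to several members of lower count, Col1a1 and Col3a1 among them, and could not call these. The median log2 fold change of the members lay between -0.0319 and 0.0307 when each library was left out, the highest value being that without non-loaded replicate 2. Over all genes, 247 higher and 101 lower calls became 439 and 163 with no filter on low counts, 82 and 18 on log2(TPM + 1), 79 and 16 on log2(TPM + 0.1), 0 and 0 with the title number as a covariate, and 141 and 64 without replicate 3 of both groups, a fit added after seeing the data. Leaving out each library gave 81 to 421 higher and 30 to 200 lower calls, the lowest without spironolactone replicate 2 and the highest without spironolactone replicate 1, the library with corneal keratin. The title number is nearly the group itself (r = 0.953), so that fit has little to separate them. Among the pathway lists the single higher call became 0 on both TPM scales and with the title number, and leaving out libraries gave 1 to 2 (Serping1 was added without spironolactone replicate 1). The single lower call, Gpc3, became 0 with upper quartile scaling, the 1 CPM filter (which removes it), DESeq2 (which gave it no adjusted p), limma-voom, both TPM scales, effective lengths, the title number and both libraries numbered 3 left out, and leaving out libraries gave 0 to 1. Where no reason is given, the cause was not tested. Intervals cover the spread of 3 libraries a group, and members under about 3 log2 CPM are limited by depth. No paired analysis was possible because the labels give the groups no shared replicate numbers.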
